A study of Mus musculus with 6 samples.

Results

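Genes of nucleic acid degradation and of the STING pathway, 10 in all, were followed in mouse N2A neuroblastoma cells after knockdown of Pax6, the gene of a transcription factor of eye and brain development. They were Pld3, Pld4, Dnase2a, Dnase2b, Trex1 and Samhd1, whose proteins break down nucleic acids or their building blocks, and Sting1, Tbk1, Ikbke and Irf3, whose proteins pass on the signal of cytosolic DNA. The group of 10 genes was built around the falls of Pld4, Dnase2b and Sting1 on these same arrays and filled up with genes of related function. Pld4, Dnase2b and Sting1 were thus chosen by their knockdown minus control difference in log2 value. The values of all 10 members are given below as a description, with no p-value. Their standard errors, intervals and calls come from the fit over all genes and are no independent evidence of a change. Each of the 10 genes had 1 probe set that named it alone, among 19938 genes with such a probe set, and 0 probe sets named a member together with another gene.

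The cells of the Pax6 knockdown group had been transfected transiently with 1.5 µg of a short hairpin RNA vector against Pax6, and those of the control group with a non-targeting vector. According to the sample labels RNA was taken 3 days later. It was hybridised to whole-transcript arrays, 3 per group, described as biological replicates. No selection of transfected cells was described, so untransfected cells may have contributed to each value in both groups, and the labels name 1 knockdown construct. In such bulk samples fewer cells of a type and less RNA per cell cannot be told apart. Values are log2 RMA summaries, so a difference of 1 is a doubling of signal, and values of different probe sets were not set against each other.

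Cells meet nucleic acids from outside and from their own nucleus, mitochondria and mobile elements. DNA and RNA that enter endosomes and lysosomes are cut by resident nucleases, and what escapes them can be read there by Toll-like receptors. DNA in the cytosol is bound by cGAS, which makes a cyclic dinucleotide that activates STING at the endoplasmic reticulum, and STING then travels through the Golgi, where TBK1 and its relative IKK epsilon phosphorylate IRF3 to switch on interferon genes. Nucleases and dNTP hydrolases limit this response by removing the substrate.

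Pax6 itself had 8.48, 8.30 and 8.50 on knockdown replicates 1 to 3, against 8.79, 8.82 and 8.81 on control replicates 1 to 3. All knockdown arrays lay below all control arrays. The difference was -0.38 (SE 0.071, adjusted p = 0.0382 by limma). The signal fell by 23.2%, and the call was lost in 5 of 15 alternative settings, among them those without any 1 of the control arrays or without knockdown replicate 3. Across all genes, limma called 762 of the 11424 tested genes at a false discovery rate (FDR) of 10%, or 6.67%. Of these, 443 (3.88%) were lower and 319 (2.79%) higher in knockdown cells, and the total moved to between 51 and 1285 when 1 array was left out. Of the neuroblast markers, 10 of 12 measured were tested. The mean level of the 12 was 10.02 to 10.11 on knockdown arrays and 10.16 to 10.26 on control arrays, ranges that did not overlap. Dbh (-1.08) and Isl1 (-0.35) were past the threshold and lower among them. Dbh had by far the widest difference of the 12 and so weighs most in this mean level, which was not computed without it. Of the 10 tested, 6 differences were negative and 4 positive, with a median of -0.056. The positive ones were Phox2a (0.05), Gata2 (0.01), Stmn2 (0.03) and Tubb3 (0.12). Beside Dbh and Isl1 the negative ones were Th (-0.22), Gata3 (-0.21), Hand2 (-0.07) and Mycn (-0.05), which did not pass. The part of this shift in mean level in the results below was not tested.

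Of the 10 genes, 9 were tested, 4 of these lay past 10% FDR in the fit over all genes, and 5 did not. The 4 were Dnase2b, Pld4, Sting1 and Pld3, and each was lower in knockdown cells, where the share over all tested genes was 3.88%. The same 4 genes had all 3 knockdown arrays below all 3 control arrays, which held for 1342 of the 11424 tested genes (11.7%). The arrays of the other 6 genes overlapped. Since the group was built around the falls of Pld4, Dnase2b and Sting1 on these arrays, nothing is read from these counts. The median difference of the 9 tested members was -0.05, beside 0.017 over all tested genes.

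**Figure D1:**
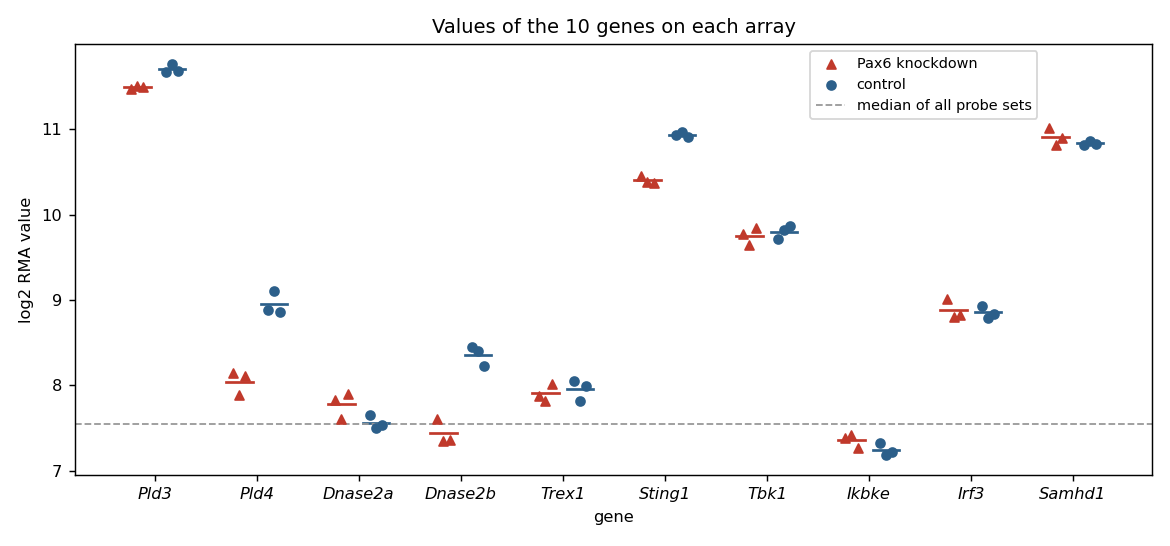
Log2 RMA value (y axis) of each of the 10 genes (x axis) on each array, with Pax6 knockdown arrays as red triangles on the left and control arrays as blue circles on the right of each gene; bars are group means and the dashed line is the median of all probe sets. Pld3, Pld4, Dnase2b and Sting1 had all knockdown arrays below all control arrays.

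PLD3 and PLD4 are membrane-anchored exonucleases of the endolysosome that trim single-stranded DNA and RNA, and in mice lacking them Toll-like receptor signalling is raised. Pld4 lies at chr12:112760446-112768986 in GRCm38.p6. It had 8.14, 7.88 and 8.11 on knockdown replicates 1 to 3, against 8.88, 9.10 and 8.86 on control replicates 1 to 3. The highest knockdown array was well below the lowest control array. The mean was 8.04 ± 0.143 in knockdown cells and 8.95 ± 0.136 in control cells (SD, n = 3 each). The difference was -0.90 (SE 0.097, 95% confidence interval -1.13 to -0.68), a 1.87-fold lower signal. Between arrays of the same replicate number it was -0.74, -1.23 and -0.74, so that replicate 2, with the lowest knockdown and the highest control value, carried the widest gap. It ran between -0.95 and -0.82 over 15 alternative settings.

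Pld3 (chr7:27531367-27553229) had a far smaller difference. Its values were 11.47, 11.51 and 11.50 on knockdown arrays, against 11.67, 11.77 and 11.68 on control arrays. Means were 11.49 ± 0.0181 in knockdown cells and 11.70 ± 0.0546 in control cells (SD, n = 3 each), a difference of -0.21 (SE 0.058, interval -0.35 to -0.08). In linear terms the signal fell by 13.7%. The groups did not overlap, and the same-number differences of -0.20, -0.26 and -0.18 were alike. Pld3 was nevertheless at the edge of the threshold, since it stayed past 10% FDR in 6 of 16 alternative settings and in 1 of the 6 fits that left out an array, that without knockdown replicate 2, while its difference stayed between -0.23 and -0.18. The difference of Pld4 minus that of Pld3 was not tested. Among the other phospholipase D genes, Pld1, Pld2 and Pld6 were tested and 0 of 3 passed, with differences between -0.20 and 0.02, and with the replicate number as a block 1 of the 3 was past the threshold and lower, where the share over all tested genes with the block was 8.91%.

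The start regions of this pair are shown because the enzymes are close relatives whose promoters differ in base composition. They are RefSeq windows of GRCm38.p6 from 250 bases before to 50 bases after the start, printed 5′ to 3′ along the gene, with CG dinucleotides in capitals. The Pld4 window is chr12:112760405-112760704 on the plus strand, and its start lies 209 bases inside the gene span given above. The Pld3 window is chr7:27553169-27553468 on the minus strand, with a start 11 bases inside the span.
Pld4: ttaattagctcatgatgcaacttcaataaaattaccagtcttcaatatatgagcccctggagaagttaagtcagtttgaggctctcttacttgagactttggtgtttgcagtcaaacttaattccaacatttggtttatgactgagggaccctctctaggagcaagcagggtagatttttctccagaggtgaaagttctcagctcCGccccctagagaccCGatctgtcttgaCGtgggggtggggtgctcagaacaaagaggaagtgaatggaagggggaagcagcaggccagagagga
Pld3: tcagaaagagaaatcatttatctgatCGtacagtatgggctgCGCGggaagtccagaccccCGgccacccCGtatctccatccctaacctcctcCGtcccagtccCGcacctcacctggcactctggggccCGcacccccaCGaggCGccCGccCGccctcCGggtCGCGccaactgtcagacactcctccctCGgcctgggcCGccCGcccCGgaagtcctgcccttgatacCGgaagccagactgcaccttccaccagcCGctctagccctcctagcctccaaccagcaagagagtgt
The Pld4 window holds 3 CG dinucleotides at a GC content of 46.7%, and the Pld3 window holds 21 at 65.3%.

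DNase II enzymes are acid endonucleases of the lysosome. Dnase2a encodes the widely expressed one, which digests the DNA of engulfed cells, and Dnase2b encodes a relative best known in the lens of the eye, where it removes nuclear DNA from maturing fibre cells. Dnase2b (chr3:146569733-146617060) had 7.61, 7.35 and 7.36 on knockdown replicates 1 to 3, against 8.45, 8.40 and 8.22 on control replicates 1 to 3. Every knockdown array was below every control array, with means of 7.44 ± 0.148 in knockdown cells and 8.35 ± 0.121 in control cells (SD, n = 3 each). The difference was -0.92 (SE 0.095, interval -1.14 to -0.70), a 1.89-fold lower signal. By replicate number it was -0.84, -1.05 and -0.86. Over 15 alternative settings it ran between -1.0 and -0.87.

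Dnase2b passed the filter on low values largely through its control arrays. It lay above the median of all probe sets of the array on 3 of 3 control arrays but on 1 of 3 knockdown arrays. Since RMA shrinks differences close to background, the size of its fall is uncertain at the low end. Its span overlaps that of Uox, the urate oxidase gene, whose own probe set had 5.67, 6.09 and 5.50 on knockdown arrays and 5.78, 6.06 and 5.74 on control arrays. The Uox groups overlapped, and Uox was below the filter and not tested.

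Dnase2a (chr8:84908755-84911703) ran the other way. Its values were 7.83, 7.61 and 7.90 on knockdown arrays, against 7.65, 7.50 and 7.53 on control arrays. Knockdown replicate 2 lay below control replicate 1, so the groups overlapped. Means were 7.78 ± 0.15 in knockdown cells and 7.56 ± 0.0774 in control cells (SD, n = 3 each), a difference of 0.22 (SE 0.087, interval 0.02 to 0.42) or 16.4% more signal, which did not pass 10% FDR. With the replicate number as a block the same difference of 0.22 was past the threshold, as was the difference of 0.34 with array weights and of 0.30 without knockdown replicate 2, while 12 of 15 settings left it short. With the block 8.96% of all tested genes were past the threshold and higher. Same-number differences were 0.18, 0.11 and 0.36, all positive.

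The start regions of the DNase II pair are shown for the same reason. The Dnase2b window is chr3:146615549-146615848 on the minus strand, and its start is an internal one, 1462 bases inside the gene span. The Dnase2a window is chr8:84908505-84908804 on the plus strand and has its start at the first base of the span. CG dinucleotides are again in capitals.
Dnase2b: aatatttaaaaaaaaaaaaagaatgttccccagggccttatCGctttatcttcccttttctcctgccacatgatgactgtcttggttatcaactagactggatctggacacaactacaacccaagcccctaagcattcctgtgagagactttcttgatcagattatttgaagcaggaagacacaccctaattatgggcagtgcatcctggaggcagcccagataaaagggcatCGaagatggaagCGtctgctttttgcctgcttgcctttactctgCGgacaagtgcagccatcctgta
Dnase2a: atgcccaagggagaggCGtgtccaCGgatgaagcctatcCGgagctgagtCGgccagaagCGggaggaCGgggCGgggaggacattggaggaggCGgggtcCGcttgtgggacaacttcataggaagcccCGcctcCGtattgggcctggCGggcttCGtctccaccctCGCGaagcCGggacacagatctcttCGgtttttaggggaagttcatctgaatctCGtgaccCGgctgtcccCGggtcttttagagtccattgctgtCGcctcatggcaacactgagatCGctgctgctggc
The Dnase2b window holds 4 CG dinucleotides at a GC content of 45.0%, and the Dnase2a window 22 at 61.7%.

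Such windows were found for 9 of the 10 genes, 10 windows in all since Trex1 has 2. Over all 32851 windows of the table the median was 7 CG dinucleotides and 52.7% GC, 38.0% of windows had 4 or fewer CG dinucleotides, and 24.8% had 21 or more. Pld4 (3), Dnase2b (4) and Ikbke (4) belonged to the CG-poor share. Pld3 (21), Dnase2a (22), Samhd1 (29) and Tbk1 (37) belonged to the CG-rich share, with Irf3 (18) and both Trex1 windows (7 and 5) between. The gene without a window was Sting1. CG-poor windows thus belonged to 3 of the 9 genes, near the share over all windows.

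**Figure D2:**
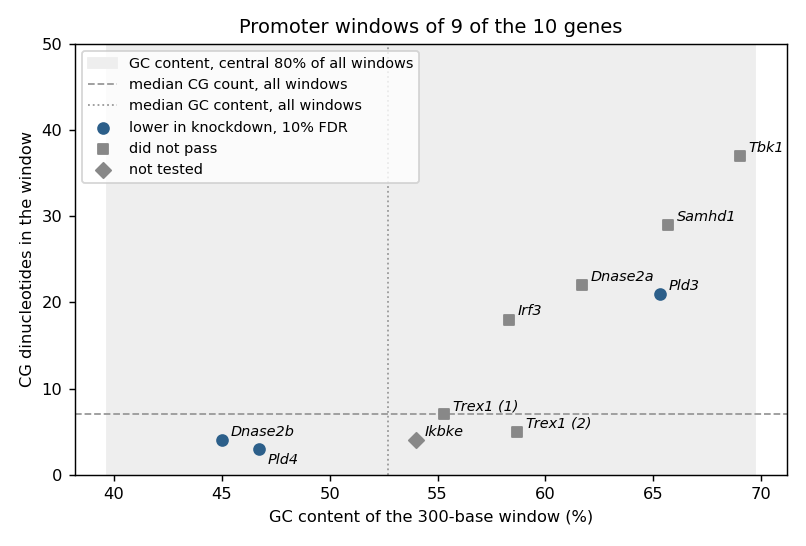
GC content in percent (x axis) and number of CG dinucleotides (y axis) of the 10 start windows of 9 genes; circles are genes lower in knockdown at 10% FDR, squares genes that did not pass and the diamond the gene that was not tested, with grey for the central 80% of GC contents and lines for the medians of all windows. Pld4 and Dnase2b lie at the lower left with 3 and 4 CG dinucleotides, while Pld3 lies among the CG-rich windows with 21.

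Short motifs were looked for on both strands of these windows. The GC box GGGCGG was in 7 of the 10 windows and in 35.7% of all windows. The CCAAT box CCAAT was in the Dnase2a window and in 37.4% of all, and the TATA box TATAAA was in 0 of the 10 and in 13.6% of all. The E-box CACGTG (7.15% of all windows) and TTCACGC, a core of the PAX6 paired domain site (1.26%), each matched the Tbk1 window, and the PU.1 element GAGGAAGT (3.2%) matched the Pld4 window and 1 Trex1 window. The tandem interferon element GAAANNGAA (8.56%) matched the Pld3 window, and the homeodomain core TAATTA (5.29%) matched the Pld4 and Dnase2b windows. The letters of these last 2 motifs were shortened after the matches of longer forms had been seen. The longer interferon form matched 1 of the 10 windows (3.44% of all) and the longer homeodomain form, a spaced dimer, matched 0 (0.487% of all), so the TAATTA matches rest on that choice. A match is a description of letters and not a bound site.

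TREX1 is the main exonuclease of cytosolic DNA, and SAMHD1 hydrolyses dNTPs. Trex1 (chr9:109057932-109059723) had 7.87, 7.82 and 8.02 on knockdown arrays, against 8.05, 7.82 and 7.99 on control arrays, and the groups overlapped throughout. Its means were 7.90 ± 0.101 in knockdown cells and 7.95 ± 0.115 in control cells (SD, n = 3 each), a difference of -0.05 (SE 0.083, interval -0.24 to 0.14) whose sign changed between alternative settings (-0.11 to 0.06). The gene lies within the span of a joint Atrip and Trex1 noncoding record, and Atrip had a difference of 0.03. Samhd1 (chr2:157097534-157135096) had 11.01, 10.82 and 10.90 on knockdown arrays, against 10.82, 10.86 and 10.83 on control arrays. Knockdown replicates 1 and 3 lay above all control arrays, and knockdown replicate 2 lay level with the lowest of them. The means were 10.91 ± 0.094 in knockdown cells and 10.84 ± 0.0198 in control cells (SD, n = 3 each), a difference of 0.07 (SE 0.066, interval -0.08 to 0.23).

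Beyond these enzymes, 18 of 25 listed nucleases were tested, among them the RNase H2 subunits, Dffb, Fen1 and Adar, and 0 of the 18 passed 10% FDR. Their differences lay between -0.26 and 0.20 with a lowest adjusted p of 0.134 by limma. With the replicate block 4 were past the threshold and lower (22.2%, beside 8.91% over all tested genes) and 1 higher (5.56%, beside 8.96%). Of the 16 genes of dNTP metabolism, such as Rrm1 and Rrm2 of ribonucleotide reductase, 0 passed, with differences between -0.25 and 0.28. With the block 2 were lower (12.5%) and 1 higher (6.25%), beside the same shares over all tested genes.

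STING, encoded by Sting1, is the adaptor on which cytosolic DNA signals converge. Sting1 (chr18:35733678-35740554) had 10.45, 10.38 and 10.37 on knockdown replicates 1 to 3, against 10.93, 10.97 and 10.91 on control replicates 1 to 3. The arrays of each group lay close together and far from those of the other. The means were 10.40 ± 0.0451 in knockdown cells and 10.94 ± 0.0305 in control cells (SD, n = 3 each). The difference was -0.54 (SE 0.058, interval -0.67 to -0.41), a 1.45-fold lower signal, which fell by 31.2%. By replicate number it was -0.48, -0.59 and -0.55, and over 16 alternative settings it ran between -0.56 and -0.52.

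The groups of the kinases and of the factor downstream of STING overlapped. Tbk1 (chr10:121546455-121586794) had 9.77, 9.64 and 9.84 on knockdown arrays, against 9.71, 9.82 and 9.87 on control arrays, with means of 9.75 ± 0.101 in knockdown cells and 9.80 ± 0.0808 in control cells (SD, n = 3 each). Its difference was -0.05 (SE 0.075, interval -0.22 to 0.12). Ikbke (chr1:131254600-131279601), the gene of IKK epsilon, had 7.38, 7.42 and 7.26 on knockdown arrays, against 7.32, 7.18 and 7.22 on control arrays. It was above the array median on 0 of 6 arrays, was not tested, and its span overlaps 2 noncoding records. Irf3 (chr7:44997648-45002848) had 9.01, 8.80 and 8.82 on knockdown arrays, against 8.93, 8.79 and 8.84 on control arrays. The Irf3 means of 8.88 ± 0.116 in knockdown cells and 8.85 ± 0.0738 in control cells (SD, n = 3 each) differed by 0.02 (SE 0.078, interval -0.16 to 0.20).

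**Figure D3:**
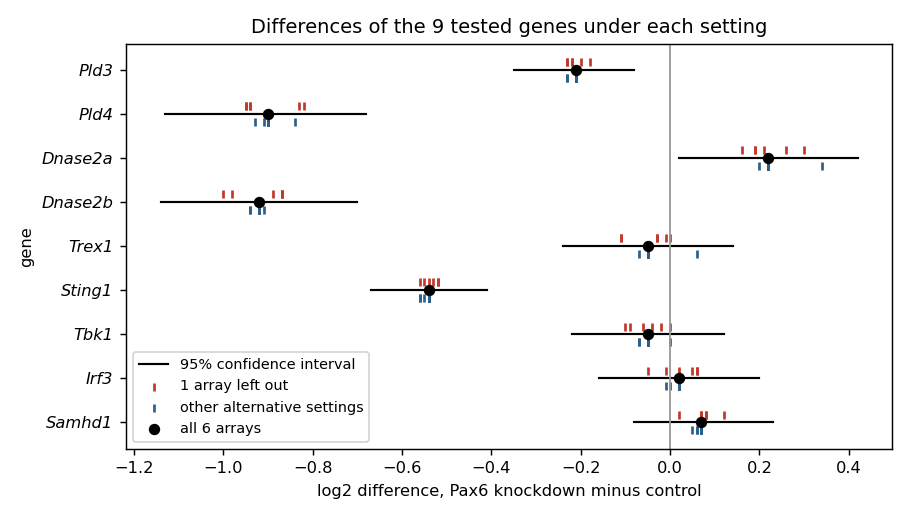
Log2 difference, Pax6 knockdown minus control (x axis), of the 9 tested genes (y axis); black points and bars are the fit to all 6 arrays with its 95% confidence interval, red ticks fits without 1 array and blue ticks the other settings. Pld4, Dnase2b and Sting1, which were chosen for their falls, lay below 0 in each, Pld3 lay between -0.23 and -0.18, and Trex1, Tbk1 and Irf3 lay around 0.

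For the 3 genes that shaped the group, the genes of nearest profile were listed. Likeness was the root mean square distance over 6 arrays after subtraction of each gene's control mean, over all tested genes. For Pld4 the nearest were Lgi1 (0.0771), Dnase2b (0.113) and Nrp1 (0.115). For Dnase2b they were Lgi1 (0.0539), Nrp1 (0.108) and Pld4 (0.113), and for Sting1 they were Lrrc55 (0.0399), Slit2 (0.04) and Phtf2 (0.045). This distance keeps in it the size of the difference, on which Pld4, Dnase2b and Sting1 had been selected.

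Other genes of these pathways were counted in 8 lists of 167 genes, of which 149 had a probe set of their own and 119 were tested. Of the 119, 8 were lower (6.72%, beside 3.88% over all tested genes) and 4 higher (3.36%, beside 2.79%), and 107 did not pass. Their median difference was -0.01. Each of these 12 calls was lost when control replicate 2 was left out. Without knockdown replicate 3 it was 11 of the 12, without control replicate 1 it was 10, without control replicate 3 it was 7 and without knockdown replicate 1 it was 3. With the replicate block the counts were 24 lower and 10 higher, where 8.91% and 8.96% of all tested genes were.

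Upstream of STING, 1 of 14 tested sensors of cytosolic DNA and RNA passed and was lower (7.14%, beside 3.88% over all tested genes). This was Ddx58, which encodes the RNA sensor RIG-I and had 8.97, 8.52 and 8.82 on knockdown arrays, against 9.37, 9.40 and 9.21 on control arrays (difference -0.56, SE 0.12, adjusted p = 0.051 by limma). Another 7 measured sensors were under the filter and not tested. Of these Dhx58 had 7.09, 6.59 and 6.92 on knockdown arrays, against 7.36, 7.28 and 7.35 on control arrays (difference -0.47), with no overlap. The share of such genes under the filter was not computed. The arrays of the others overlapped, with differences from -0.17 (Ifi203) to 0.02 (Ifi205). Cgas, whose product makes the ligand of STING, was among them. Its values were 6.89, 6.45 and 6.75 on knockdown arrays and 6.74, 6.58 and 6.77 on control arrays, which overlapped. With the block 1 of the 14 tested sensors was lower (7.14%, beside 8.91% over all tested genes) and 2 higher (14.3%, beside 8.96%).

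Among 29 tested genes of STING trafficking and regulation, 4 were higher (13.8%, beside 2.79% over all tested genes) and 2 lower (6.9%, beside 3.88%). With the replicate block 4 were higher (13.8%, beside 8.96% over all tested genes) and 3 lower (10.3%, beside 8.91%), so both shares lay nearer to those over all genes. Ulk1, a kinase of autophagy that also phosphorylates STING, had 10.10, 9.97 and 10.09 on knockdown arrays, against 9.47, 9.55 and 9.61 on control arrays (difference 0.51, SE 0.067, adjusted p = 0.0157 by limma). Rnf26 (0.26, adjusted p = 0.054), a ubiquitin ligase of STING, Rhbdf2 (0.27, adjusted p = 0.0795), whose product iRhom2 acts on its trafficking, and Tollip (0.21, adjusted p = 0.0956), which stabilises it, rose by less. Usp18, whose product is a brake on interferon signalling, had 8.98, 8.73 and 9.08 on knockdown arrays, against 9.61, 9.60 and 9.40 on control arrays (difference -0.61, SE 0.1, adjusted p = 0.0289). Tmed10, a cargo receptor of the early secretory pathway, was lower by a difference of -0.30 (adjusted p = 0.051). The list held changes in both directions, with a median of 0.

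The endosomal side, where PLD3, PLD4 and DNase II act, had 13 tested genes. Of these 1 passed and was lower (7.69%, beside 3.88% over all tested genes). Unc93b1, the chaperone that carries nucleic acid receptors to endosomes, had 10.40, 10.37 and 10.29 on knockdown arrays, against 10.79, 10.77 and 10.67 on control arrays, with no overlap. Its difference was -0.39 (SE 0.063, adjusted p = 0.0259 by limma), and the call was lost without control replicate 1, control replicate 2 or knockdown replicate 3, with differences between -0.43 and -0.36 over all settings. Tlr3, Tlr7, Tlr8 and Tlr13 were under the filter. Of these Tlr3, a receptor of double-stranded RNA, had 6.55, 6.47 and 6.33 on knockdown arrays, against 6.80, 6.73 and 6.58 on control arrays, with no overlap and no test. All knockdown arrays lay below all control arrays in 11.7% of all tested genes, and the share among genes under the filter was not computed. Tlr7 (-0.12), Tlr8 (0.05), Tlr13 (0.01) and Ctss (0.03), which was also under the filter, overlapped. Tlr9, the DNA receptor, had a difference of 0.09 that did not pass. With the block 4 genes of this list were lower (30.8%, beside 8.91% over all tested genes) and 1 higher (7.69%, beside 8.96%).

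Downstream, 1 of 15 tested genes of the TBK1 and IKK epsilon complexes and of the IRF and NF-kB factors passed. It was lower (6.67%, beside 3.88% over all tested genes). Irf7, an interferon-induced relative of Irf3, had 7.44, 7.29 and 7.64 on knockdown arrays, against 8.04, 8.04 and 7.88 on control arrays (difference -0.53, SE 0.098, adjusted p = 0.0371 by limma). On knockdown replicates 1 and 2 Irf7 lay below the array medians of 7.57 and 7.54, so it passed the filter largely through its control arrays. With the block 2 of these 15 genes were lower (13.3%, beside 8.91% over all tested genes) and 1 higher (6.67%, beside 8.96%). Of 22 measured interferon-induced targets 11 were tested, of which 3 were lower (27.3%, beside 3.88% over all tested genes), 0 higher and 8 did not pass. Oasl2 (-0.50, adjusted p = 0.0302), a relative of the oligoadenylate synthetases, Trim21 (-0.55, adjusted p = 0.0451), a cytosolic antibody receptor, and Parp9 (-0.31, adjusted p = 0.0741), an ADP-ribosyltransferase partner, were the 3. The median of the 11 tested was -0.229, with 10 of 11 differences negative, beside 0.017 and 44.5% negative over all tested genes. With the block 7 of the 11 were lower (63.6%, beside 8.91% over all tested genes). The other 11 measured targets were under the filter, and the knockdown and control arrays of each overlapped. Their differences had both signs, from -0.32 (Mx1) to 0.21 (Ifnb1), with Ifit1 at 0.09 and Oas1a at -0.08. Ifnb1, the interferon gene that IRF3 switches on, was under the filter and not tested.

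**Figure D4:**
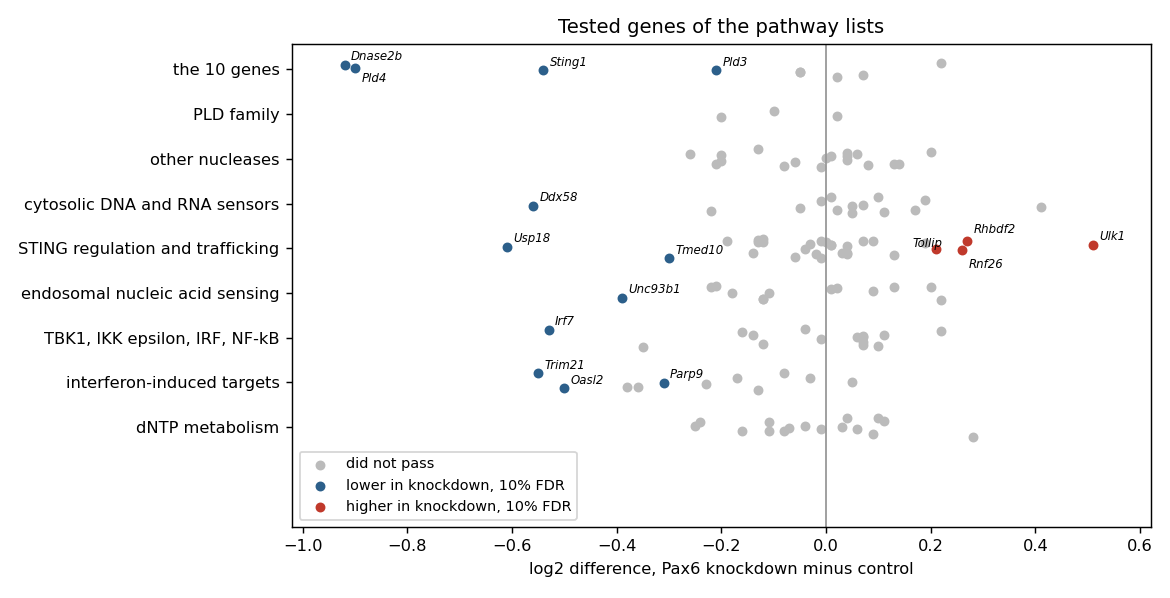
Log2 difference, Pax6 knockdown minus control (x axis), of each tested gene in the group of 10 genes and in 8 pathway lists (rows, with points spread vertically for display); blue is lower and red higher in knockdown at 10% FDR, and grey did not pass. Dnase2b, Pld4 and Sting1 stand left of most points, 4 genes of STING regulation are red, and the lists of other nucleases and dNTP metabolism hold grey points alone.

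Pld4 is best known from microglia, B cells and plasmacytoid dendritic cells, so markers of such cells were read as well. Of 12 macrophage and microglia markers 11 lay under the array median on every array, Ptprc, Aif1, Csf1r and Spi1 included, with Cx3cr1 the exception. Their mean level was 6.62 to 6.81 on knockdown arrays and 6.72 to 6.75 on control arrays. Of 8 measured markers of B cells and plasmacytoid dendritic cells 7 lay under it on every array, with Tcf4 the exception, and their mean level was 6.98 to 7.24 on knockdown arrays and 7.10 to 7.16 on control arrays. Of 7 measured fibroblast markers only 2 lay under it on every array, and 4 (Col1a1, Col1a2, Col3a1 and Pdgfrb) were tested. The fibroblast markers had a mean level of 7.49 to 7.63 on knockdown arrays and 7.56 to 7.65 on control arrays. The mean levels of these 3 lists overlapped between the groups. Within them Cd68 (-0.24), Aif1 (-0.10) and Dcn (-0.33), which were not tested, had all knockdown arrays below all control arrays. Pdgfrb (0.19), which was tested and did not pass, had all above, and the share of all genes in that direction was not computed. All knockdown arrays below all control arrays held for 11.7% of all tested genes, and the share among genes under the filter was not computed. The arrays of the other measured markers of these lists overlapped, with differences of both signs, such as Tyrobp (0.17) and C1qa (-0.17). The part of these cell types in the falls of Pld4, Dnase2b and Sting1 was not tested.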

How the data were processed

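Gene expression of N2A cells was measured on 3 Pax6 knockdown and 3 control whole-transcript mouse arrays. The authors corrected background by RMA, quantile normalized the arrays and deposited a summary value for each probe set, taken here as log2 from their range, since no log base is written with them. Quantile normalization hides any change in total RNA per cell, and RMA shrinks differences close to background. Software versions and the low-value filter's height are not given in the sources used here. Array medians were 7.49 to 7.59, and precision is limited by having 3 arrays a group.

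Gene names came from the platform annotation, in which 21789 of 35556 had 1 gene symbol, 1621 several and 12146 none. Of the 1-symbol probe sets 21698 matched the RefSeq table of GRCm38.p6 by gene identifier. The 1-symbol probe set with the highest mean stood for each of 19938 genes. Tested genes (11424) exceeded the all-probe-set median on 3 or more of 6 arrays. The test of knockdown against control used limma 3.58.1 in R 4.3.3 (lmFit and eBayes, two-sided, Benjamini-Hochberg over the tested genes, 10% FDR, the threshold of the study). Differences are knockdown minus control, with intervals at 95%. The procedure was tested on simulated data.

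The members, the pathway and marker lists and the motifs were chosen with earlier results of these data known. The text names all members, Pax6, in each list the tested genes past 10% FDR, and for Pld4, Dnase2b and Sting1 the 3 genes of nearest profile; other genes were chosen after their values were seen. Promoter windows and positions come from RefSeq tables of GRCm38.p6, and motif matches were counted with Python 3.11.15.

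Knockdown and control labels use the same replicate numbers with no stated meaning. Residuals about the group means had correlations of 0.574, 0.323 and 0.23 within the 3 numbers, all over 0.1, which meets the criterion for pairs, although knockdown replicate 2 with control replicate 3 also reached 0.178. The reported fit is unpaired, and the fit with the number as a block was an alternative. The other alternatives were 3 other filters and no filter, 2 scalings, array weights, the mean of a gene's probe sets, a variance trend, and leaving out each array.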

Additional observations from a re-analysis of the deposited data

How the results depend on the processing

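Pld4, Dnase2b and Sting1 kept their direction and call in all settings that tested them, which is no evidence for their falls, since they had been selected on these falls. Pld3 kept its direction but not its call, and Dnase2a passed only with the replicate block (0.22), array weights (0.34) and without knockdown replicate 2 (0.30). Of the members, 2 were past the threshold with the 75th percentile filter, which left Pld4 and Dnase2b untested, and 3 to 5 with 1 array left out. No difference that had been called turned in direction.

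The number of genes called moved far more. It was 762 as reported (319 higher and 443 lower), 245 without a filter (68 higher, 177 lower), 389 with the 25th percentile filter (130 higher, 259 lower) and 127 with the variance filter (20 higher, 107 lower). It was 1204 with array centring (786 lower), 1382 with a second quantile normalization (592 higher, 790 lower), 4239 with array weights (2639 higher, 1600 lower), whose estimation stopped before its tolerance was reached, and 2042 with the replicate block (1024 higher, 1018 lower). The 75th percentile filter gave 529 higher genes. With 1 array left out the total ran from 51 (without control replicate 2) to 1285 (without knockdown replicate 2), with 7 to 820 higher and 43 to 465 lower; it was 185 without control replicate 1, 159 without control replicate 3 and 56 without knockdown replicate 3.

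In the 8 pathway lists, 8 lower and 4 higher genes became 5 and 1 without a filter and with the variance filter. The 25th percentile filter gave 1 higher gene. Array centring gave 19 lower genes, the second quantile normalization 18 and the variance trend 13. Array weights gave 27 lower and 20 higher, and the replicate block 24 lower and 10 higher. With 1 array left out, 0 to 9 were lower and 0 to 8 higher. The causes were not tested. Fewer arrays, or more genes tested, are part of how some of these settings are built. The difference of Pld3 lay at the edge of the threshold, and no limit of detection was estimated for 3 arrays a group. Ikbke was tested in the settings with no filter or the 25th percentile filter, where its difference of 0.12 did not pass.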
